A study of Rattus norvegicus with 24 samples.

Results

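Paired receptors of myeloid cells come in activating and inhibitory forms that share closely related immunoglobulin-like outer domains. Members of the PILR and SIRP families with long tails recruit tyrosine phosphatases such as Ptpn6 (SHP-1). Their short-tailed partners and the TREM receptors Trem1 and Trem2 signal through the ITAM adaptor Tyrobp (DAP12) and the kinase Syk. Sirpa binds Cd47 on other cells, and Trem2 is a receptor of macrophages, microglia and osteoclasts for lipids and apolipoproteins such as Apoe. The 3 genes described here are *RGD1562847*, annotated as similar to PILR alpha and today a synonym of *Pilra* in RefSeq, *Ptpns1l3*, annotated as a gene like the SIRP alpha gene *Ptpns1*, and *Trem2*. They were chosen by their log2 ratios between allogeneic and syngeneic explants in these same arrays, so that these ratios are given as a description without a test. Each had 1 probe with 1 spot, and together they were 3 of 8453 probes and 3 of 7263 genes on the array.

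Paw skin explants of 12 male BN rats (*RT1n*) aged 15 weeks and 1.5 mm in size were used in the skin explant assay, which models the graft versus host reaction in culture. From every rat, 1 explant was kept for 3 days with 1000000 lymphocytes of BN rats (syngeneic) and 1 with the same number from PVG rats (*RT1c*, allogeneic), both harvested after 7 days of culture with irradiated splenocytes of BN rats (mixed lymphocyte reaction, MLR). RNA of the 2 explants was hybridised together on 2 arrays with both dyes each, Cy3 and Cy5, with the dyes exchanged, which are 1 replicate, and n is 12 rats throughout. The groups differed in the strain of the added lymphocytes as well as in the reaction, and these cannot be told apart. The explants were washed before RNA was prepared, which then came from skin cells and from lymphocytes that had attached or entered, and fewer cells of a type and less RNA per cell cannot be told apart either. The keratinocyte genes *Perp* and *Trp63* and the fibroblast genes *Col1a2*, *Postn* and *Pdgfra* were detected well over background on each of the 24 arrays in both groups. The same held for the T cell genes *Cd3e*, *Cd3d*, *Cd3g*, *Cd2*, *Cd5* and *Cd8b*. The T cell genes *Cd8a* and *Tcrb* were detected on 23 arrays in the samples labelled as allogeneic and on 24 in the others. *Cd4* was detected on 13 arrays in each group and *Cd28* on 2.

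The direction of each ratio was taken from the dyes given in the sample labels. By these labels all 3 genes were lower in the sample labelled as allogeneic, which is opposite to the sign given in the study for the same genes. The log2-fold changes printed in the study for them were also larger in size than the ratios given below, and the reason was not tested. The study also ran quantitative PCR on part of the same sample pairs. It gave the direction of the study's arrays for most MHC and NK complex genes tested. Among these were *Aif1*, *Lst1*, *Ly49i9* and *Ly49si1*, which are lower by the labels used here. The 3 genes were not among the rat genes tested in that way. With the sign turned, every lower value below reads as higher, and group names are those of the labels throughout.

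The arrays lay on 3 slides with 4 rats each, and every slide and array held both groups. Values of 2 rats stood apart. Array 1 of rat 10 was far brighter than the others, with a median spot intensity of 25640 in Cy5 against 289.8 to 414.9 on array 1 of the other rats. Over all probes its ratios correlated by r = 0.11 with the mean of the other rats, while its dye-swapped partner correlated by 0.77. The 2 arrays of rat 8 were alike (r = 0.94) but differed from the other rats (r = 0.22 between the rat and the mean of the other 11, which lay between 0.53 and 0.83 for every other rat). Values with and without them are given below. Rat 9 had the widest ratios over the whole array, with a slope of 1.57 on the mean of the other rats.

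The probes are 60 bases long, and what each one can bind bears on the reading of families with close copies. The 2 SIRP probes are given whole because they cover corresponding stretches of related genes, while 30 bases are shown of the other 2. In the first and last line, capitals mark the longest run shared with a probe of another gene on the array, and in the 2 middle lines they mark the bases that are identical between both probes when laid side by side without gaps.
*RGD1562847*, probe bases 31 to 60: tctagccttgtgtcagcTATATATTCAAta
*Ptpns1l3*, whole probe: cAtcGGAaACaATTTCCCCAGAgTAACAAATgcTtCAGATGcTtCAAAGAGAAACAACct
*XM_226926*, whole probe: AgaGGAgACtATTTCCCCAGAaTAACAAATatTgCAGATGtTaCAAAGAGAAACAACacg
*Trem2*, probe bases 1 to 30: gaGCAGGAATACTGGtgtgctgcatctgcg

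In the coordinates of the array design (rn3), the whole *RGD1562847* probe lay at chr12:19997151-19997210 on the plus strand, the *Ptpns1l3* probe at chr2:86695859-86695918 on the minus strand, the *Trem2* probe at chr9:8059065-8059124 on the minus strand and the *XM_226926* probe at chr2:86511260-86511319 on the plus strand. The strand is read from the order of the listed coordinates. Exon and UTR positions were not analysed here because no genome of that build was given. The *Ptpns1l3* and *XM_226926* probes were identical at 47 of 59 aligned bases (79.7%), and their longest common run was 14 bases. The probe of *RGD1559887*, a further SIRP-like gene, shared a run of 14 bases with *Ptpns1l3* as well, and 31 of 58 aligned bases (53.4%). Of the other 4 probes described as SIRP, 1 shared a run of 8 bases with it and 3 shared no run of that length. Of all probes of the array, 20.5% shared a run of 14 bases with a probe of any other gene, which is not the rate for a given pair of probes. The runs marked for *RGD1562847* (11 bases, shared with *Hspa1a* and other probes) and *Trem2* (13 bases) were of lengths found in 99.6% and 45.3% of all probes, and no probe described as PILR or TREM shared 8 or more bases in a row with them. How far related transcripts bound to these probes was not tested.

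*RGD1562847*, the PILR alpha-like gene, differed most between the 2 explants of a rat. Its signal exceeded background clearly, by the flag of the scanner software, in both dyes of each of the 24 arrays. The normalised level in the explants labelled as syngeneic was 11.66 in the lowest, 12.67 in the median and 13.69 in the highest rat on the log2 intensity scale. In the explants labelled as allogeneic it was 8.74 in the lowest, 9.21 in the median and 10.50 in the highest rat. The groups did not overlap, which held for 0.0964% of all genes in this direction. The log2 ratio per rat was -4.94 in the lowest, -3.37 in the median and -2.42 in the highest rat, with a mean of -3.36 ± 0.67 (SD, n = 12), a level 10.3-fold higher in the samples labelled as syngeneic. It was negative in 12 of 12 rats, as in 3.24% of all genes, and on 24 of 24 arrays. Rat 9 had the lowest ratio and rat 10 the highest, and the latter was the mean of -0.42 on its far brighter array and -4.43 on the swapped array. Without the far brighter array the mean was -3.53 ± 0.66, and without rat 8 it was -3.35 ± 0.70 (SD, n = 11).

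*Ptpns1l3*, the SIRP-like gene, followed next. Its level in the explants labelled as syngeneic ran from 8.36 over a median of 10.01 to 10.99 on the log2 intensity scale, and in those labelled as allogeneic from 6.67 over 7.22 to 7.67. Again the groups did not overlap, and the signal cleared background in both dyes of every array. The spread of the levels was 2.57 times wider among the samples labelled as syngeneic (SD 0.74) than among those labelled as allogeneic (SD 0.29). The latter were dim, down to 78.7 over a local background of 49 in Cy3 (rat 8, array 2), and an offset of 50 was added. How far this narrowed their spread was not tested. Its log2 ratio was -3.43 in the lowest, -2.76 in the median and -1.55 in the highest rat and had a mean of -2.64 ± 0.62 (SD, n = 12), 6.22-fold higher in the samples labelled as syngeneic. The ratio was negative in all 12 rats but on 23 of 24 arrays, since the far brighter array of rat 10 gave 0.25 where its partner gave -3.34. The mean was -2.79 ± 0.55 without that array and -2.72 ± 0.57 without rat 8, in which the ratio was only -1.68. With no background subtraction it was -2.60, with an offset of 10 in place of 50 it was -3.12, and with the signals processed by the scanner software -3.56.

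*Trem2*, the lipid-binding TREM receptor, had the smallest ratio of the 3. Levels in the explants labelled as syngeneic were 11.18, 12.41 and 13.89 in the lowest, median and highest rat on the log2 intensity scale, against 9.75, 10.43 and 11.47 in those labelled as allogeneic. Here the groups overlapped, with 2 syngeneic samples (rats 3 and 4) below the highest allogeneic sample (rat 10). Without the far brighter array, 1 syngeneic sample (rat 4, 11.18) was below the highest allogeneic sample (rat 8, 11.24), and without rat 8 as well the groups did not overlap. Within each rat the sample labelled as allogeneic was nevertheless the lower, in 12 of 12 rats and on 24 of 24 arrays. The log2 ratio ran from -2.89 in rat 9 over a median of -1.62 to -0.61 in rat 11, with a mean of -1.69 ± 0.67 (SD, n = 12), or 3.23-fold. Rat 8, whose *Ptpns1l3* ratio was among the 2 nearest to 0, had the second lowest *Trem2* ratio (-2.65). Without the far brighter array the mean was -1.79 ± 0.73, and without rat 8 it was -1.61 ± 0.63. Among the mean ratios of all 7263 genes, those of *RGD1562847*, *Ptpns1l3* and *Trem2* ranked 1, 2 and 7 from the lowest, which is how they came to be chosen. These ranks are those of the main background correction, and with the processed signals and in the series table *XM_226926* lay below all 3.

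**Figure D1:**
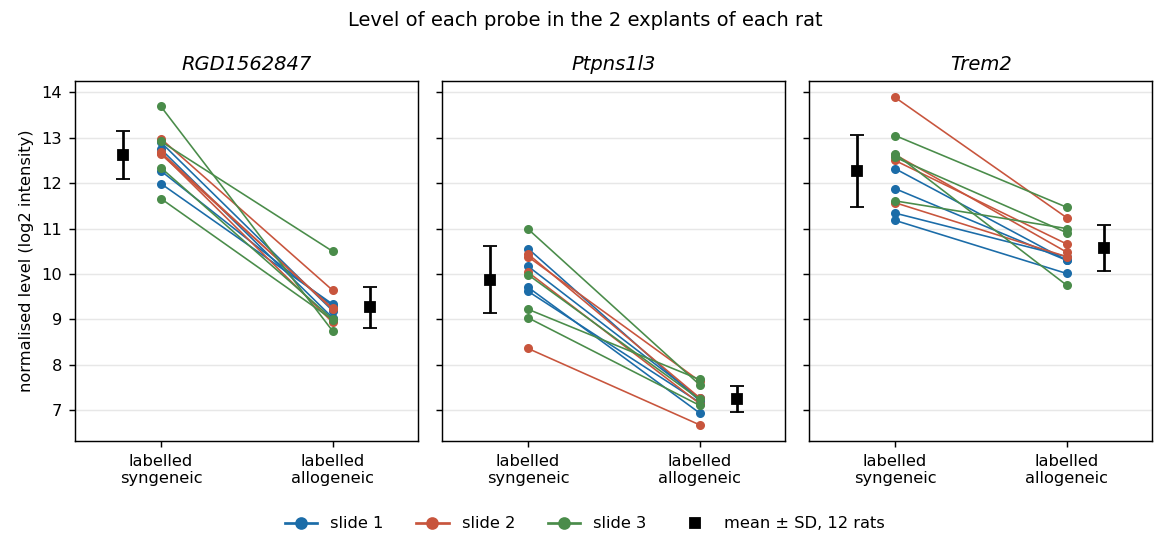
Normalised level (log2 intensity, loess within and quantile scaling between arrays) of the 3 probes in the 2 explants of each of 12 rats, joined by lines coloured by slide, with black squares and bars for mean ± SD. All 36 lines fall from the sample labelled as syngeneic to the sample labelled as allogeneic, and the groups overlap for *Trem2* alone, where this rests on rat 8 and the far brighter array of rat 10.

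Each of the 3 slides gave negative means for each gene. *RGD1562847* had a mean log2 ratio of -3.26 ± 0.53 on slide 1, -3.48 ± 0.17 on slide 2 and -3.34 ± 1.13 on slide 3 (SD, n = 4 rats each). For *Ptpns1l3* the slide means were -2.87 ± 0.37, -2.62 ± 0.65 and -2.41 ± 0.84, and for *Trem2* -1.43 ± 0.47, -1.96 ± 0.61 and -1.69 ± 0.94. Slide 3, which held rats 9 and 10, had the widest spread for each gene. Tested by limma's moderated F over the 3 slides, none of the 3 probes passed the threshold (adjusted p = 0.979, 0.928 and 0.927 over all probes). The same test called 0 of 8453 probes, 0% of the array, with 217 at an unadjusted p under 0.05.

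The 2 dye orientations were compared within each rat, since a dye effect would move the 2 arrays of a rat apart. For *Trem2* the ratio was nearer to 0 with the allogeneic sample in Cy5 (mean -1.49 ± 0.75, SD, n = 12) than with it in Cy3 (-1.90 ± 0.72). This difference of 0.41 (SE 0.15) had the same sign in 12 of 12 rats and passed limma's test over all probes (adjusted p = 0.0306). For *RGD1562847* the difference was 0.33 (SE 0.29, adjusted p = 0.361) and positive in 5 of 12 rats, and for *Ptpns1l3* 0.38 (SE 0.25, adjusted p = 0.222) and positive in 9 of 12 rats. Differences between orientations were common on these arrays, with 52% of all probes called. For the 3 genes the largest came from rat 10, where the 2 arrays differed by 4.01 for *RGD1562847*, 3.60 for *Ptpns1l3* and 2.25 for *Trem2*. Without rat 10 the limma estimates over 11 rats were -0.0048 (adjusted p = 0.942), 0.089 (adjusted p = 0.0433) and 0.24 (adjusted p = 8.43e-05), with 60.5% of all probes called. The mean over both orientations, used for all ratios above, cancels a dye effect of equal size, and in either orientation alone the 3 genes had negative means.

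**Figure D2:**
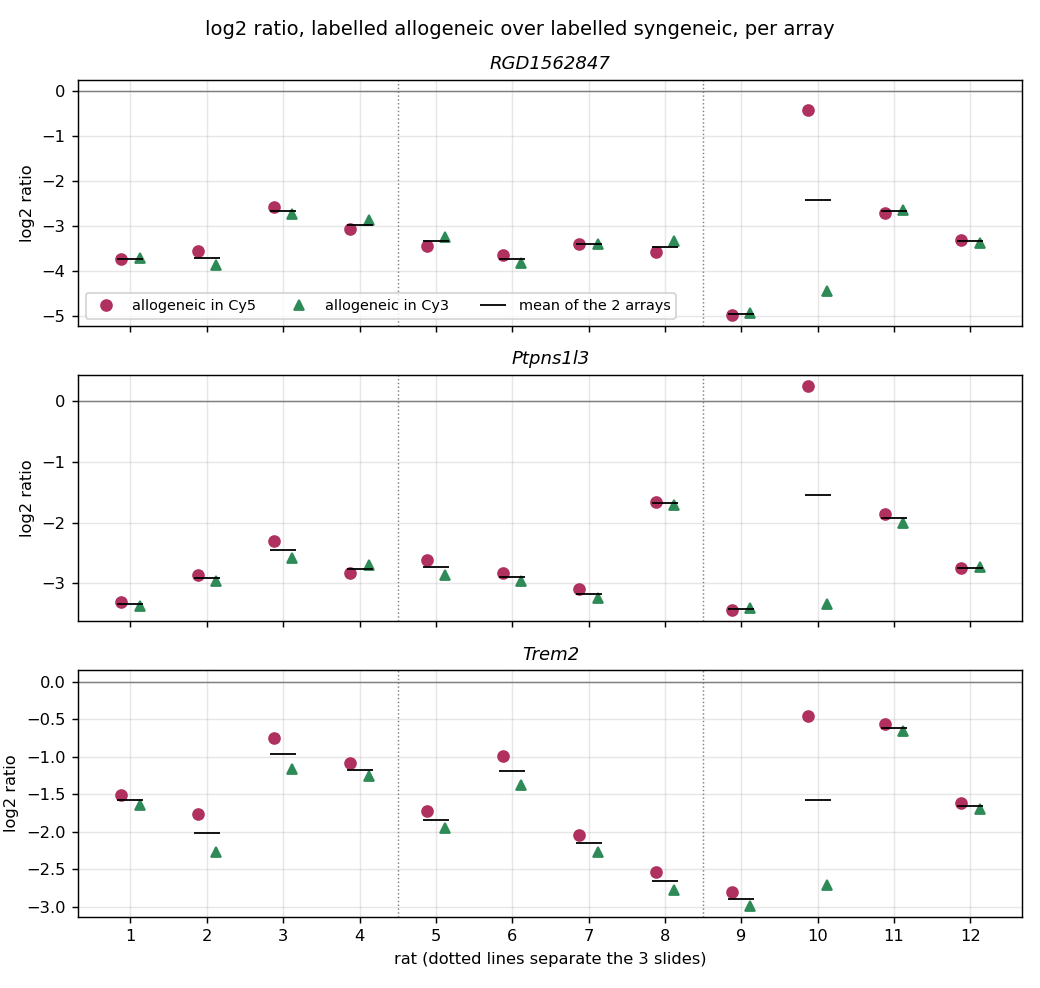
log2 ratio of the sample labelled as allogeneic over the sample labelled as syngeneic on each of the 24 arrays, by rat, with circles and triangles for the 2 dye orientations and a dash for their mean. The 2 arrays of a rat lie close together except in rat 10, whose far brighter array gave -0.42, 0.25 and -0.46 for the 3 genes.

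The relatives of the 3 genes were then taken from the array by the words of the probe descriptions, a choice made after the files had been seen. Of 4 other probes described as PILR, limma called 4 lower in the samples labelled as allogeneic, where 8.48% of all probes were called lower. The largest ratio among them was that of *RGD1563400*, similar to the activating PILR beta, with a log2 ratio of -1.26 ± 0.58 (SD, n = 12; adjusted p = 0.000233), and the smallest that of *LOC686899*, also similar to PILR beta, with -0.37 ± 0.29 (adjusted p = 0.00653). Between them stood a transcript cluster matched to mouse PILR beta, *TC537397*, with -0.98 ± 0.46 (adjusted p = 0.000265) and *XM_341050*, similar to PILR beta 1, with -0.77 ± 0.31 (adjusted p = 0.000128). All 4 were lower in 12 of 12 rats. The 3 probes of the PIR-A and PIR-B receptors, a separate group of paired receptors, were also called lower, from -0.78 ± 0.44 for *LOC683463* to -0.34 ± 0.23 for *Pirb*, whose signal cleared background on 1 array in the channel labelled as allogeneic and on 16 in the other, of 24 each.

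Of 6 other SIRP probes, 3 were called lower. The probe of *XM_226926*, printed above beside *Ptpns1l3*, had a log2 ratio of -1.68 ± 0.57 (SD, n = 12; limma adjusted p = 4.31e-05), lower in 12 of 12 rats, and cleared background on 24 arrays in the channel labelled as syngeneic but on 2 in that labelled as allogeneic. Its ratio was -2.70 with an offset of 10 in the background correction, -3.89 in the series table and -4.78 with the processed signals, the last 2 lower than those of all 3 chosen genes under the same settings. *RGD1559887* had -0.69 ± 0.53 (limma adjusted p = 0.0052) and was lower in 11 of 12 rats. The transcript cluster *TC555372* had -0.29 ± 0.17 (limma adjusted p = 0.0013). The 2 probes of *Ptpns1*, which encodes Sirpa itself, had -0.15 ± 0.20 and -0.13 ± 0.19 and were not called (limma adjusted p = 0.0783 and 0.102), nor was the SIRP-like *RGD1566226* (0.03 ± 0.07, adjusted p = 0.336), which cleared background on 2 arrays per channel. The SIRP probes called lower with the largest ratios were the 2 that shared a 14-base run with *Ptpns1l3*. The share of 20.5% given above counts runs with a probe of any other gene and is not the rate for such pairs. Whether the runs bear on the ratios was not tested.

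Of 5 other TREM probes, 2 were called lower. *Trem1*, the amplifier of neutrophil and monocyte responses, had a log2 ratio of -0.88 ± 0.41 (SD, n = 12; limma adjusted p = 0.000225) and was lower in 12 of 12 rats. *RGD1565175*, similar to the platelet receptor Treml1, had -0.54 ± 0.32 (limma adjusted p = 0.00121), lower in 12 of 12 rats. The remaining 3, described as similar to Treml2, TREM 4 and TREM 5, lay between -0.03 and 0.03 and were not called. *LOC684984*, the one described as similar to TREM 4, is *Cd300lg* in RefSeq.

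**Figure D3:**
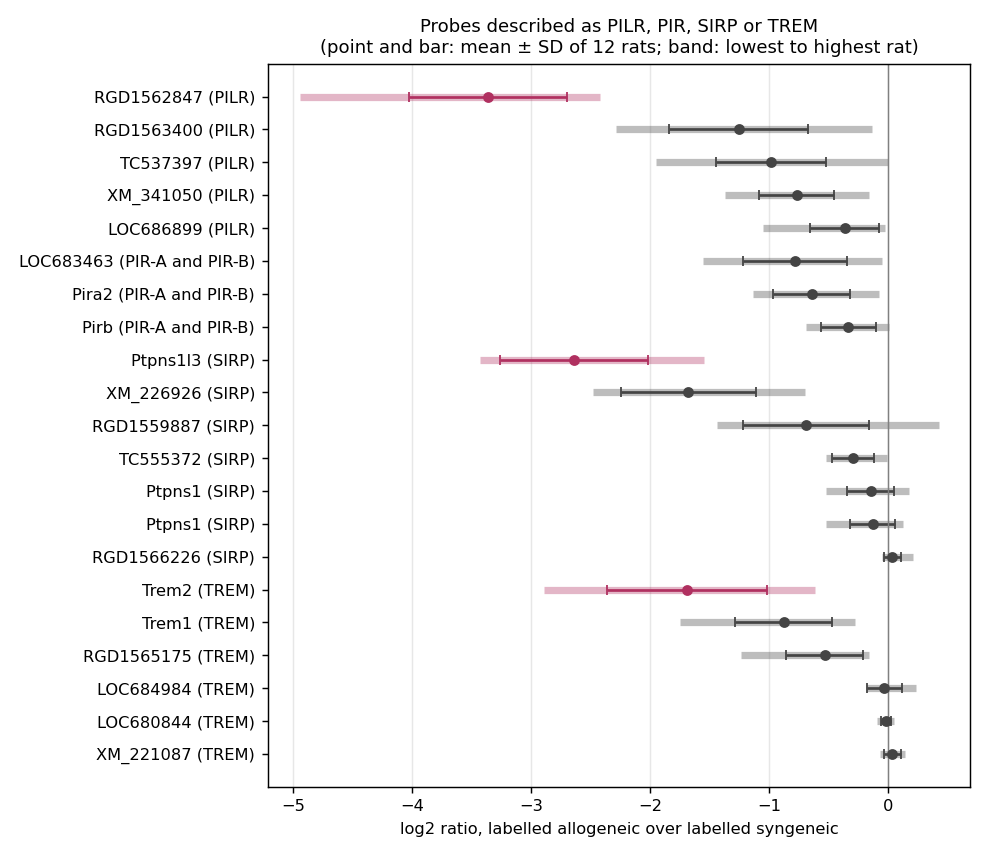
log2 ratio of each probe described as PILR, PIR-A or PIR-B, SIRP or TREM, with points and bars for mean ± SD of 12 rats and bands from the lowest to the highest rat; the 3 chosen genes are in red. With the main background correction, the chosen gene has the lowest ratio among the PILR, SIRP and TREM probes, which follows from the choice by this ratio. Next in these families come *RGD1563400*, *XM_226926* and *Trem1*. With the processed signals, *XM_226926* was lower than *Ptpns1l3* (-4.78 against -3.56). Within 0.15 of 0 are 3 of the TREM probes, the 2 *Ptpns1* probes and the SIRP-like *RGD1566226*.

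Genes related to these receptors were counted from lists written with earlier results of these data known. The lists held signalling genes, relatives of the receptors, ligands and sheddases, and genes of lipid-laden macrophages. A gene's value was the mean of its probes, and calls were made by limma over all 7263 genes, of which 7.6% were called lower and 8.66% higher in the samples labelled as allogeneic. Over the 7 lists together, 69 genes besides the 3 chosen ones were on the array, and 32 were called lower and 4 higher. Their median log2 ratio was -0.12, against 0.01 over all genes.

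Among the ITAM adaptors and activating signalling genes, 10 of 19 were called lower and 2 higher, with a median of -0.10. *Tyrobp*, the adaptor of Trem2 and of activating PILR and SIRP receptors, had a log2 ratio of -0.71 ± 0.32 (SD, n = 12; limma adjusted p = 0.000235) and was lower in 12 of 12 rats. Also called lower were *Vav1*, an exchange factor of blood cells (-0.85 ± 0.50), the adaptor *Lcp2* (-0.78 ± 0.47) and the phosphoinositide 3-kinase adaptor *Pik3ap1* (-0.57 ± 0.27). The 2 called higher were *Plcg1* (0.29 ± 0.14) and *Vav2* (0.10 ± 0.06), whose relatives *Plcg2* and *Vav1* were called lower.

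Among the effectors of ITIM receptors and the Src family kinases, 8 of 16 were called lower and 0 higher by limma, with a median of -0.22. The inhibitory adaptor *Dok3* (-0.86 ± 0.45) and the lymphocyte kinase *Lck* (-0.70 ± 0.51) were among those called lower. Of the 2 phosphatases recruited by PILR alpha and Sirpa, *Ptpn6* was called lower (-0.41 ± 0.23, limma adjusted p = 0.000876, 12 of 12 rats), while *Ptpn11* had -0.01 ± 0.07 (adjusted p = 0.861) and was lower in 6 of 12 rats.

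The list of PILR and paired receptor relatives had 6 of 8 genes called lower (median -0.49). Besides those given above these were *Igsf6* (-1.08 ± 0.81), *RGD1561143*, which RefSeq names *Pilrb2* (-0.68 ± 0.30), and the sialic acid receptor *Siglec1* (-0.28 ± 0.19), which cleared background on 5 arrays in the channel labelled as allogeneic and on 21 in the other. The SIRP list had 1 of 3 called lower, *XM_226926*, and *Cd47*, the ligand of Sirpa, had 0.14 ± 0.46 (limma adjusted p = 0.489) and was higher in 8 of 12 rats. The TREM list had 2 of 3 called lower, the 2 named above.

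Ligands and sheddases of these receptors gave 2 of 9 genes called higher and 0 lower by limma, with a median of 0.11. They were *Apoe*, an apolipoprotein bound by Trem2 (0.50 ± 0.44, limma adjusted p = 0.0124, higher in 10 of 12 rats), and *Clu*, another apolipoprotein bound by Trem2 (0.48 ± 0.27, limma adjusted p = 0.000966, 12 of 12 rats). *Apoe* was not called with median centring in place of loess (0.34, limma adjusted p = 0.153). The proteases that shed Trem2, *Adam10* and *Adam17*, had 0.10 ± 0.46 and 0.11 ± 0.41 and were not called. In the list of the lipid-laden macrophage programme, 5 of 11 were called lower and 0 higher (median -0.37). The scavenger receptors *Cd36* (-1.41 ± 0.63) and *RGD1564316*, which RefSeq names *Msr1* (-0.98 ± 0.70), the glycoprotein *Gpnmb* (-0.99 ± 0.50), the integrin *Itgax* (-0.57 ± 0.41) and the fatty acid carrier *Fabp4* (-0.37 ± 0.29) were those called, while *Spp1* had -0.81 ± 1.20 (limma adjusted p = 0.112).

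**Figure D4:**
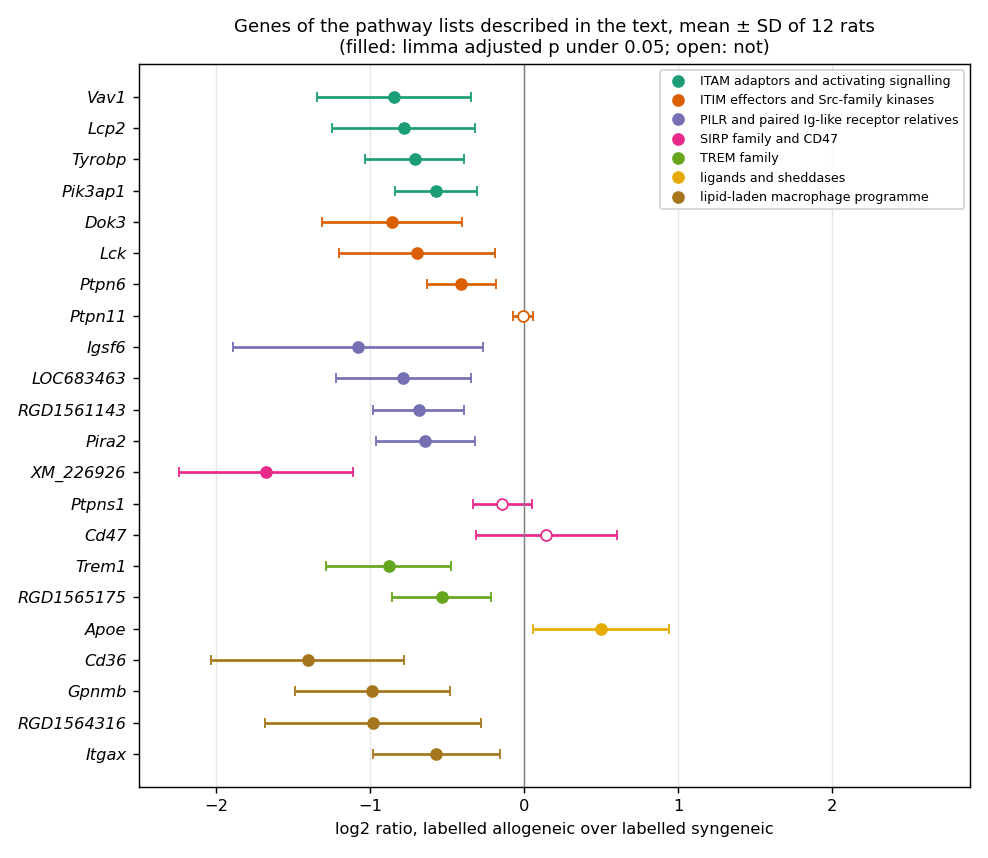
log2 ratio (mean ± SD of 12 rats) of genes of the 7 pathway lists, coloured by list. Shown are the reported genes called with a ratio of 0.5 or more in size, and *Tyrobp*, *Ptpn6*, *Ptpn11*, *Cd47*, *Ptpns1* and *Trem1*. Filled points passed limma's adjusted p of 0.05 over all genes and open points did not. *XM_226926* and *Cd36* have the lowest ratios shown, and *Apoe* is the only filled point above 0. *Clu*, *Plcg1* and *Vav2* were also called higher but had smaller ratios and are not shown.

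Marker genes of cell types were counted in the same way, where 7.6% of all genes were called lower and 8.66% higher. The called marker genes of macrophages, neutrophils, T cells and NK cells were lower in the samples labelled as allogeneic. Those of fibroblasts, keratinocytes and endothelial cells were higher. Most neutrophil and NK cell markers were not called. The median log2 ratio was -0.34 for the macrophage, -0.29 for the T cell, -0.08 for the NK cell and -0.008 for the neutrophil list. Of the macrophage markers 4 of 8 were called lower and 0 higher by limma, among them *Aif1* (-1.27 ± 0.50) and *Itgam* (-0.60 ± 0.40), and their mean level was 9.35 to 10.34 on the log2 scale in the samples labelled as allogeneic and 9.65 to 11.00 in the others. All 8 cleared background on each of the 24 arrays in the channel labelled as syngeneic. The macrophage genes *Cd14*, *Cd163*, *Emr1* and *Mrc1* were not called. Of the dendritic cell markers 2 of 4 were called lower and 1 higher (mean level 8.53 to 8.99 against 8.78 to 9.57), of the neutrophil markers 1 of 5 lower (9.22 to 9.69 against 9.51 to 9.98), of the T cell markers 4 of 10 lower (7.49 to 8.04 against 7.76 to 8.56), of the NK cell markers 2 of 7 lower (7.45 to 7.95 against 7.50 to 8.07), and of the B cell markers 0 of 4 (6.71 to 8.26 against 6.85 to 8.38). Fibroblast markers were called higher in 2 of 3 (11.08 to 12.79 against 10.54 to 12.40), keratinocyte markers in 1 of 2 (14.03 to 15.57 against 12.72 to 15.36) and endothelial markers in 3 of 6 (9.32 to 10.52 against 9.06 to 10.13), with 0 called lower. The part of these cell types in the ratios of the 3 genes was not tested.

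Whether the 3 genes varied together from rat to rat was tested by Pearson's r and Spearman's rho over the 12 rats, for the 3 pairs of genes and for each gene with *Tyrobp*, with permutation p adjusted over these 6 relations. The points share arrays and RNA, and rat 9 had wide ratios overall. *Trem2* and its adaptor *Tyrobp* had the closest relation (r = 0.89, adjusted permutation p = 0.00078; rho = 0.85, adjusted p = 0.00516), and r was 0.76 without rats 8 and 9, the 2 farthest from the median of *Trem2* (adjusted permutation p = 0.0219), with rho at 0.74 (adjusted permutation p = 0.0701). *RGD1562847* and *Ptpns1l3* gave r = 0.70 and rho = 0.75 (adjusted permutation p = 0.0155 and 0.0182), *RGD1562847* and *Trem2* r = 0.70 and rho = 0.55 (0.0155 and 0.126), and *RGD1562847* and *Tyrobp* r = 0.74 and rho = 0.52 (0.0155 and 0.126). Without rats 9 and 10, r fell to 0.51, 0.62 and 0.66 and passed the threshold in none of these 3 (adjusted permutation p = 0.13, 0.0699 and 0.056, 10 rats). With all 12 rats but without the far brighter array, r was 0.66, 0.80 and 0.81 (adjusted permutation p = 0.0289, 0.00286 and 0.00286). The relations of *Ptpns1l3* with *Trem2* (r = 0.24, rho = 0.33, adjusted permutation p = 0.443 and 0.356) and with *Tyrobp* (r = 0.29, rho = 0.27, adjusted permutation p = 0.432 and 0.403) did not pass over all 12 rats, but without rats 8 and 10 r was 0.80 and 0.81 (adjusted permutation p = 0.0218 for both), while rho was 0.72 and 0.65 and did not pass (adjusted permutation p = 0.0701 and 0.0982). With the processed signals, where the 2 farthest rats were 10 and 11, r without them was 0.040 and 0.12.

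**Figure D5:**
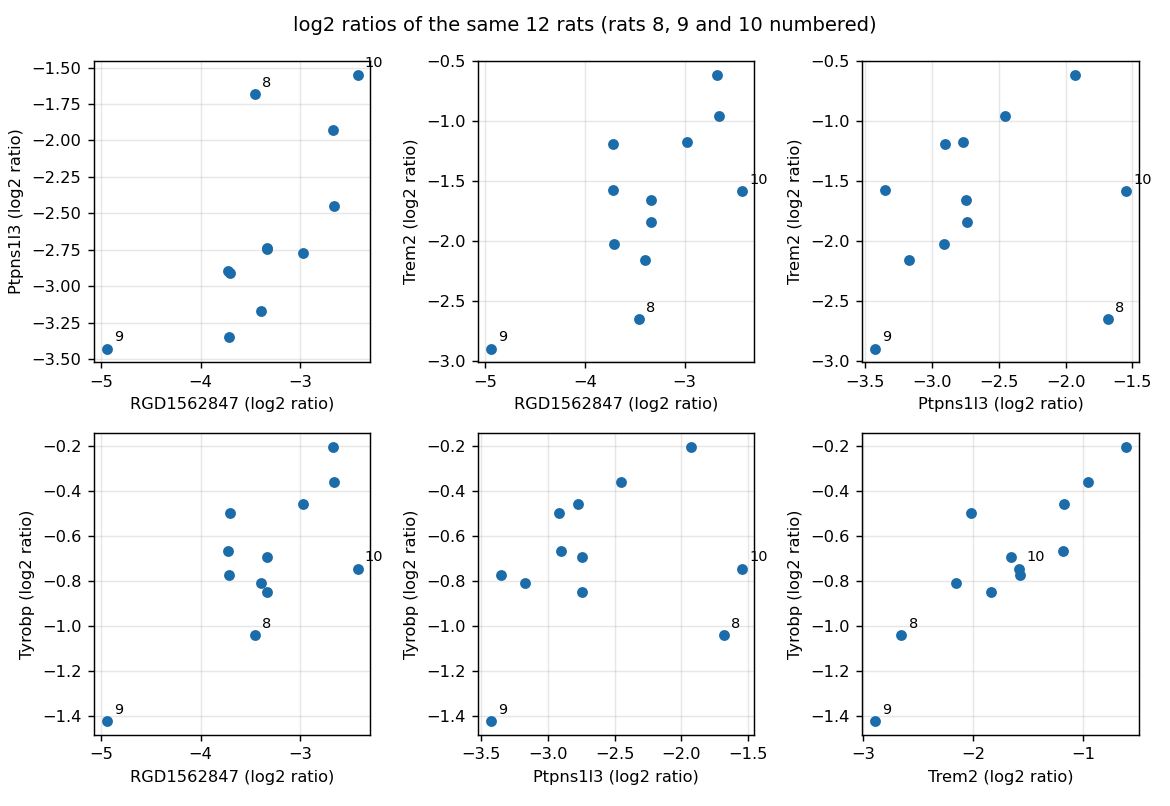
log2 ratios, labelled allogeneic over labelled syngeneic, of 2 genes against each other in the same 12 rats, for the 6 relations tested; rats 8, 9 and 10 are numbered. Rat 9 is at the low end in every panel, and rat 8 lies off the other rats in the panels of *Ptpns1l3* with *Trem2* and *Tyrobp*.

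The genes whose per-rat ratios were most like each of the 3 were sought among 6338 other genes that cleared background on 12 or more of the 24 arrays in either group. For *Trem2* these were the myeloid hexokinase *Hk3* (r = 0.97 over 12 rats), the integrin *Itgam* (0.96), *Trem1* (0.94), *Dok3* (0.94) and *Itgax* (0.94), and the median r over all these genes was -0.04. Each of the 5 was itself lower in the samples labelled as allogeneic by 0.57 or more on the log2 scale. For *Ptpns1l3*, the first was *XM_226926* (r = 0.95), the relative whose probe is printed above and which passed this filter through the channel labelled as syngeneic alone, followed by *Cdh23*, *Olr786*, *Pcsk1* and the NK receptor gene *Ly49i3* (0.92 each). For *RGD1562847* they included *Olr297* (0.92), *Syk* (0.89), *Mutyh* (0.86) and *Ptpn7* (0.85). The mean ratios of *Olr297*, *Mutyh*, *Cdh23* and *Olr786* were within 0.05 of 0, with SDs of 0.06 to 0.18 between rats, so that likeness over rats did not go with a ratio of similar size. Without the far brighter array, r lay between 0.81 and 0.95 for all 15. These genes were picked for the highest r among 6338 over 12 rats, so high values follow in part from the picking. The repeat used the same rats and is no separate support. How high r would be without any relation was not tested.

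The start regions of 2 of the genes could be read from RefSeq (GRCr8), 250 bases before to 50 after the annotated start, under the names *Pilra* and *Trem2*. They were searched on both strands for AGGAAGT, a core bound by the myeloid factor PU.1 and other ETS proteins, because Trem2 and the PILR receptors are expressed in myeloid cells. The *Pilra* window, chr12:23452447-23452746 on the plus strand, held 1 match 91 bases before the start, shown in capitals within chr12:23452595-23452624.
*Pilra* promoter stretch: ccagaccaataAGGAAGTtgctggccacaa

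The *Trem2* window, chr9:20151730-20152029 on the minus strand, did not hold these letters. They were found in 8.41% of 33469 such windows. A match is a description of letters and not of a bound site. *RGD1562847* was matched to *Pilra* by synonym alone, and whether the *Pilra* window belongs to the gene copy of its probe was not tested.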

How the data were processed

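Skin explants of 12 rats were compared on 24 arrays with both dyes, each placed in its rat and orientation through the labels of its channels. Per the file headers, spot mean intensity and local background median intensity were extracted with Feature Extraction 9.5.1.1 and deposited by the authors without normalization; the deposited processed intensity and the log2 ratios of the authors' series table, whose background treatment is not stated, were alternatives. All 24 columns of that table correlated positively with the turned processed log2 ratios (r = 0.70 to 0.96), with column medians of -0.03 to 0.02. The submitters' processing notes name limma. Here R 4.3.3 with limma 3.58.1 was used: normexp with an offset of 50, loess within arrays with control and outlier spots (161 to 228 per array) at no weight and left out afterwards, ratios turned to allogeneic over syngeneic, spots averaged per probe and the 2 arrays averaged per rat. Levels used Aquantile scaling. Saturated spots were kept, and none of the 3 probes was saturated or marked as an outlier. Between 74.8% and 99.9% of spots were well above background; the number of rats limits the precision.

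Genes and probes were tested by limma over 12 rats with Benjamini-Hochberg adjustment over all of them at 0.05. Correlations used 100000 permutations, two-sided. The members and lists were chosen with earlier results of these data known. The genes named were the 3 members, called list genes with a log2 ratio of 0.5 or more in size, *Tyrobp*, *Ptpn6*, *Ptpn11*, *Cd47*, *Ptpns1* and *Trem1*, and the 5 genes most like each member; others were named after their values were seen. Of the genes this rule names, 2 are not reported here. Names were matched by gene name, accession, unique synonym or the identifier in the description, through RefSeq (GRCr8); *Ptpns1l3* had no entry there. The fit was tested on simulated data for allogeneic against syngeneic explants (7263 genes, 200 changed): 98% of changed genes were called, and 1.51% of calls were false. The planted changes were 0.5 or more in size on the log2 scale, and the values of each gene were shuffled between rats on their own. These rates thus do not cover smaller changes or deviations that many genes of a rat share. Alternatives concerned background, normalization, dye orientation, outliers, dim probes, slide, test, series table, the far brighter array and each rat.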

Additional observations from a re-analysis of the deposited data

Results flagged for a closer look

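The log2 ratio of *Trem2* differed between the 2 dye orientations by 0.41, with the allogeneic sample in Cy5 minus in Cy3 (SE 0.15, limma adjusted p = 0.0306 over all probes, n = 12 rats). It was positive in 12 of 12 rats, from 0.08 in rat 12 to 2.25 in rat 10, and 52% of all probes differed between orientations by the same test. Without rat 10, which held the far brighter array, it was 0.24 (limma adjusted p = 8.43e-05). The mean ratio was -1.49 in one orientation and -1.90 in the other.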

How the results depend on the processing

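The mean log2 ratios of the 3 genes were negative under all 22 alternatives run for each, from -3.55 to -3.20 for *RGD1562847*, -3.56 to -2.45 for *Ptpns1l3* and -1.90 to -1.49 for *Trem2*. The 2 that moved by more than the spread between rats were those of *Ptpns1l3* with processed signals (-3.56) and in the series table (-3.38). Leaving out 1 rat at a time gave -3.45 to -3.22, -2.73 to -2.56 and -1.79 to -1.58. Of all genes 1181 were called, against 2194 and 2086 with 1 dye orientation each (allogeneic in Cy5 and in Cy3), and 936 to 1746 without 1 rat, the most without rat 8. Of the pathway genes 36 were called, 36 to 39 without 1 rat and 36 to 46 under the other alternatives. Among the named pathway genes, *Apoe* lost its call with median centring, and *Ptpns1* was called with median centring (-0.18), with the allogeneic sample in Cy3 only (-0.28) and without rat 8 (-0.16). With median centring, the dye orientations differed for *RGD1562847* (0.85, adjusted p = 0.00654) and *Ptpns1l3* (0.59, adjusted p = 0.0278, limma). Alternatives added after seeing the data were the fit without rat 10, where the difference was -0.0048 for *RGD1562847* and 0.089 for *Ptpns1l3*, and a fit with no replicate block, where arrays were not paired by rat and the *Trem2* difference of 0.41 was not called (adjusted p = 0.304, limma). Without the 2 farthest rats, r was 0.51 for *RGD1562847* with *Ptpns1l3*, 0.62 with *Trem2* and 0.66 with *Tyrobp*, and 0.80 and 0.81 for *Ptpns1l3* with *Trem2* and *Tyrobp*. The overlap of the *Trem2* levels without the far brighter array and rat 8 was also added after seeing the data. Each of the 3 genes had 1 probe, so that no choice between probes was possible. The causes of these changes were not tested. The spot of *Ptpns1l3* in the channel labelled as allogeneic was as dim as 78.7 over a local background of 49 (rat 8, array 2).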

Other observations

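Among the 12 genes with the lowest mean log2 ratios, listed after their values were seen, 9 were other than the 3 genes. They included *Fcgr3a*, an Fc receptor that signals through ITAM adaptors (-2.19 ± 0.40, SD, n = 12), the NK receptor genes *Ly49i9* (-2.28 ± 0.78) and *Ly49si1* (-1.48 ± 0.75), the MHC class I gene *RT1-CE10* (-1.75 ± 0.45), the chemokine *Ccl6* (-1.54 ± 0.70), *Lst1* (-1.46 ± 0.44) and *LOC684013* (-2.22 ± 0.94). *XM_226926*, described above, was also among them. Each of the 9 was lower in 12 of 12 rats in the sample labelled as allogeneic.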
